A study of Mus musculus with 8 samples.

Results

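Transcripts of 4 adult haemoglobin genes (Hba-a1, Hba-a2, Hbb-bs and Hbb-bt), of the erythroid haem enzyme gene Alas2 and of the platelet chemokine genes Pf4 and Ppbp were followed in RNA of sorted mouse eosinophils. The 7 genes were taken by symbol from 54446 gene rows, each symbol matched 1 row, and all 7 passed the filter on low counts, which kept 11828 genes. RNA of eosinophils sorted in a mouse model of asthma was sequenced by CEL-Seq, in which RNA is amplified linearly and transcripts are read near their 3' ends. The libraries, all from C57BL/6 mice, were labelled SiglecFhi/CD101+ eosinophils (n = 2, replicates 1 and 2), Siglec-Fint/CD101- eosinophils (n = 2, replicates 1 and 2) and resident eosinophils (n = 4, replicates 3 to 6). Siglec-F is a lectin that mouse eosinophils carry on their surface, and CD101 is a surface protein of the immunoglobulin family. No treatment, time, age, sex, genotype beyond the strain or animal is labelled, so group and treatment cannot be told apart. The p-values reflect the spread between libraries that may be technical replicates.

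Adult haemoglobin is a tetramer of alpha and beta chains that carries oxygen in red cells, and its transcripts are among the most abundant RNAs of reticulocytes. Haem for these chains begins with Alas2, the erythroid form of the first, rate-limiting enzyme of haem synthesis, while Alas1 is the form of other tissues. Pf4 (CXCL4) and Ppbp, the precursor of CXCL7, are CXC chemokines that megakaryocytes make and platelets store in alpha granules. The lung is a bed of blood vessels in which red cells and platelets lie close to the tissue's leukocytes.

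Haemoglobin genes come in near-identical pairs, which sets what a count of either copy can say. On GRCm38 in the GENCODE annotation, Hba-a1 lies on chromosome 11 at 32283511 to 32284465 and Hba-a2 at 32296489 to 32297298, both on the plus strand. Hbb-bs lies on chromosome 7 at 103826534 to 103828096 and Hbb-bt at 103812524 to 103813996, both on the minus strand. Alas2 is on chromosome X at 150547375 to 150570638, and Ppbp at 90768518 to 90770063 and Pf4 at 90772435 to 90773383 are neighbours on chromosome 5, all on the plus strand. The 429 coding bases of the alpha pair differ at 1 position, C381T from Hba-a1 to Hba-a2 counted from the first coding base, and the 444 coding bases of the beta pair differ at 1 position, C417T from Hbb-bs to Hbb-bt. Neither difference changes a residue, of 142 and 147 residues. The following stretches of 60 coding bases, from GENCODE transcripts, are shown because they hold the lone coding difference of each pair, in capitals.
Hba-a1: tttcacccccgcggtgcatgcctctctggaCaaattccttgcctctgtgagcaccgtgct
Hba-a2: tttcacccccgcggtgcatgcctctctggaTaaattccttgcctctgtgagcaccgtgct
Hbb-bs: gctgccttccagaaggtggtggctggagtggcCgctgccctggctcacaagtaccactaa
Hbb-bt: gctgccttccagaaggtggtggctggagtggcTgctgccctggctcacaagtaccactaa

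Near the 3' end, where CEL-Seq reads fall, the pairs were unlike each other. Of the 50-base windows in the last 200 transcript bases, 66.9% of those of Hba-a1 were also found in Hba-a2, and 56.3% of those of Hba-a2 in Hba-a1. The corresponding share was 0% for both Hbb-bs and Hbb-bt, although 65.8% and 58.3% of the windows over their whole transcripts were shared. Counts of the 2 alpha genes are therefore given as uncertain between copies, and sums of each pair are given beside them. How reads that match both copies were counted is not given in the sources used here.

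The promoters of the alpha pair, 120 bases before the RefSeq start on GRCm38.p6, were identical over 117 aligned bases at a shift of 3 bases, and those of the beta pair were 73.9% identical over 119 ungapped bases. Promoters of 1 alpha gene, 1 beta gene and both chemokine genes are shown because the genes of each kind lie side by side and were measured together here. Capitals mark 4 motifs on either strand: the TATA box, searched as TATAA, the CAAT box of many promoters, searched as CCAAT, the motif of GATA factors, searched as GATAA, and the motif of Krüppel-like factors, searched as CACCC. Matches of different motifs may overlap.
Hba-a2, chr11:32296372-32296491, plus strand: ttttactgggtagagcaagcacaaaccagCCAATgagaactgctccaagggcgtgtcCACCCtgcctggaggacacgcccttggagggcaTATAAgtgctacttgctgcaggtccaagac
Hbb-bs, chr7:103827929-103828048, minus strand: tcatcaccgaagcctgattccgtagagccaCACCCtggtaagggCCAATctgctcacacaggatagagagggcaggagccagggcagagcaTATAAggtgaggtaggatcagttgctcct
Pf4, chr5:90772315-90772434, plus strand: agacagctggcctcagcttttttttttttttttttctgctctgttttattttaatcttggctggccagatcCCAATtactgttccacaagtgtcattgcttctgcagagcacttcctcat
Ppbp, chr5:90768398-90768517, plus strand: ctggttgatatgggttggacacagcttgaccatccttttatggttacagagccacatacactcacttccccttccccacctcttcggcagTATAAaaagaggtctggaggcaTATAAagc
Of the 7 members' promoters, 5 held the TATA box, 5 the CAAT box, 5 the Krüppel-like motif and 1, that of Alas2, the GATA motif. Over all 32851 RefSeq promoter windows of this length, the shares were 11.85% for the TATA box, 21.3% for the CAAT box, 31.7% for the Krüppel-like motif and 10.5% for the GATA motif. All 4 globin promoters held the first 3 of these, while of the 4 motifs the Pf4 window held the CAAT box alone and the Ppbp window the TATA box alone. A match is a description of these letters and no site of binding.

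Totals ran from 1513517 to 3109428 counts in SiglecFhi/CD101+ libraries, from 1517159 to 2990294 in Siglec-Fint/CD101- libraries and from 5600610 to 11583550 in resident libraries. Genes of the mitochondrial genome took 70.6% to 82.2% of counts in SiglecFhi/CD101+ libraries, 69.9% to 83.9% in Siglec-Fint/CD101- libraries and 38.6% to 61.8% in resident libraries. A count of 3, used as the floor of a library, equals 1.58 to 1.81 CPM (the count scaled by library size) in SiglecFhi/CD101+, 1.86 to 2.18 CPM in Siglec-Fint/CD101- and 0.199 to 0.500 CPM in resident libraries. Eosinophil markers summed to 147 and 445 CPM in SiglecFhi/CD101+, 163 and 294 CPM in Siglec-Fint/CD101- libraries, and 305, 428, 183 and 274 CPM in resident libraries. The marker with the most counts was Prg2 (major basic protein) over the SiglecFhi/CD101+ pair, with 458 (73 and 385 in replicates 1 and 2). It was the ribonuclease gene Ear2 in the other groups, with 359 counts over the Siglec-Fint/CD101- pair and 10019 over the 4 resident libraries. In SiglecFhi/CD101+ replicate 1 Ear2 had more counts than Prg2, with 88. Prg2 had counts in all 8 libraries, but only 1 and 3 in Siglec-Fint/CD101- replicates 1 and 2, at or below the floor of 3. Epx had 25 counts, all in resident replicate 5, and Prg3 had none, and these granule genes were named after their values were seen. Siglecf had 19 and 44 counts in SiglecFhi/CD101+, none in Siglec-Fint/CD101- and 61 to 559 in resident libraries. The deposited tables of the libraries titled Siglec-Fint/CD101- carry the letter R and those titled resident the letter N, which the labels do not explain, so the match of titles to tables is uncertain and all groups are as titled.

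Transcripts of the 4 haemoglobin genes were found in every library, at levels that did not separate the groups and that varied several-fold among Siglec-Fint/CD101- and among resident libraries. Together they made up 0.339% and 0.396% of all counts in SiglecFhi/CD101+ libraries, 0.696% and 0.137% in Siglec-Fint/CD101- libraries, and 1.04%, 0.161%, 0.185% and 0.319% in resident libraries. The group means were 0.368% ± 0.0406 in SiglecFhi/CD101+ (SD, n = 2), 0.416% ± 0.396 in Siglec-Fint/CD101- (SD, n = 2) and 0.428% ± 0.417 in resident libraries (SD, n = 4). Resident replicate 3 was the highest of all 8 libraries and Siglec-Fint/CD101- replicate 2 the lowest, and the 3 groups overlapped. In bulk RNA, fewer cells of a type and less RNA per cell cannot be told apart.

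Leaving the mitochondrial genes out of the denominator changed the order of the groups' means. Outside these genes, the 4 haemoglobin genes took 1.91% and 1.35% of counts in SiglecFhi/CD101+ libraries, 2.31% and 0.849% in Siglec-Fint/CD101- libraries, and 2.74%, 0.375%, 0.302% and 0.667% in resident libraries. All 4 subset libraries stood above 3 of the 4 resident libraries, and resident replicate 3 stood above all of them. Counted this way, the group means were 1.63% ± 0.396 in SiglecFhi/CD101+ (SD, n = 2), 1.58% ± 1.03 in Siglec-Fint/CD101- (SD, n = 2) and 1.02% ± 1.16 in resident libraries (SD, n = 4).

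**Figure D1:**
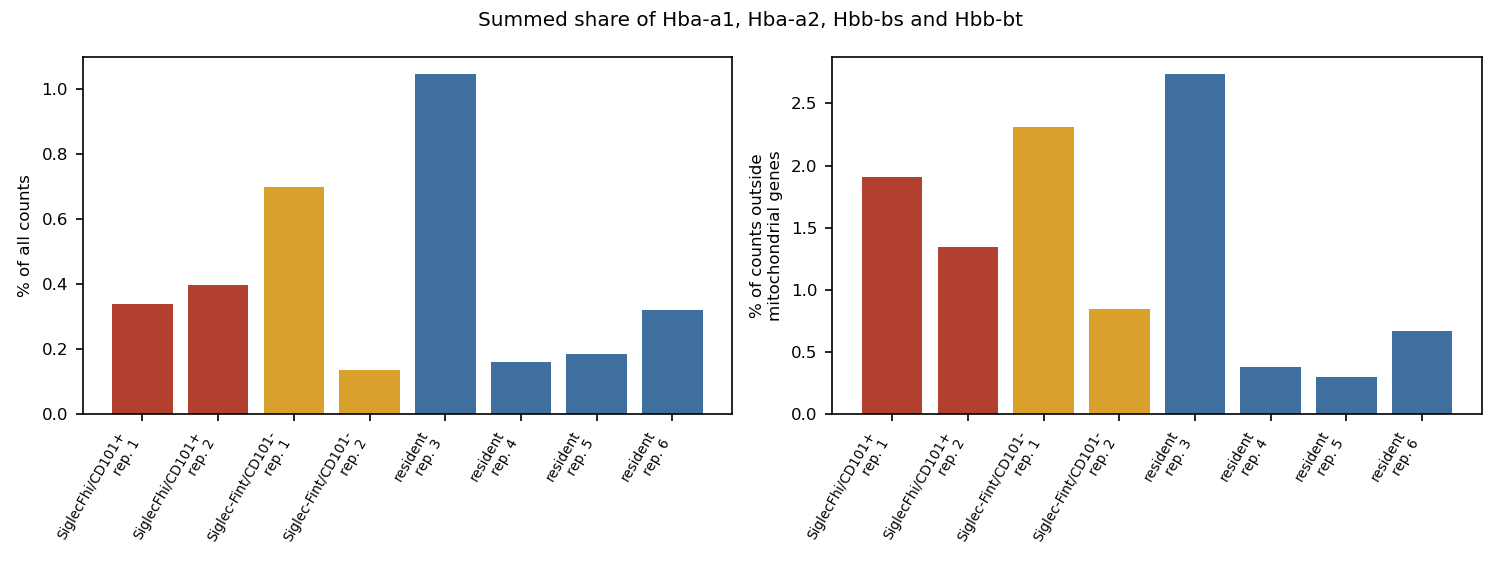
Summed share of Hba-a1, Hba-a2, Hbb-bs and Hbb-bt in each library (1 bar a library, coloured by group), as % of all counts on the left and as % of counts outside mitochondrial genes on the right. Resident replicate 3 is the highest bar in both panels, at 1.04% and 2.74%, and the lowest bar is Siglec-Fint/CD101- replicate 2 on the left (0.137%) and resident replicate 5 on the right (0.302%).

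Hba-a1 (ENSMUSG00000069919) encodes an adult alpha chain. It had 1637 and 906 CPM in SiglecFhi/CD101+, 2094 and 826 CPM in Siglec-Fint/CD101- libraries, and 3201, 421, 343 and 621 CPM in resident libraries. Both subsets lay above resident replicates 4 to 6 and below resident replicate 3, so the groups overlapped. The fitted log2 fold change was 0.16 ± 0.72 (SE) for SiglecFhi/CD101+ against resident (edgeR adjusted p = 0.943), 0.35 ± 0.71 for Siglec-Fint/CD101- against resident (adjusted p = 0.836) and -0.19 ± 0.84 between SiglecFhi/CD101+ and Siglec-Fint/CD101- (adjusted p = 0.993).

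Hba-a2 (ENSMUSG00000069917), the second adult alpha gene, was the most counted of the 7 members in every library but resident replicate 5. It had 2078 and 1602 CPM in SiglecFhi/CD101+, 3607 and 831 CPM in Siglec-Fint/CD101- libraries, and 4145, 569, 213 and 1103 CPM in resident libraries. Outside the mitochondrial genes it ranked 5 and 6 by count in SiglecFhi/CD101+, 8 and 30 in Siglec-Fint/CD101- libraries, and 8, 81, 188 and 21 in resident libraries. Resident replicate 5 held the lowest level and resident replicate 3 the highest. The log2 fold change was 0.29 ± 0.80 for SiglecFhi/CD101+ against resident (edgeR adjusted p = 0.891), 0.56 ± 0.79 for Siglec-Fint/CD101- against resident (adjusted p = 0.746) and -0.26 ± 0.93 between the subsets (adjusted p = 0.974).

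Hbb-bs (ENSMUSG00000052305) is an adult beta chain gene of the haplotype carried by C57BL/6. It had 1670 and 780 CPM in SiglecFhi/CD101+, 1450 and 794 CPM in Siglec-Fint/CD101- libraries, and 2003, 383, 395 and 523 CPM in resident libraries. All subset libraries again stood between resident replicate 3 and the other resident libraries. Its log2 fold change was 0.57 ± 0.59 for SiglecFhi/CD101+ against resident (edgeR adjusted p = 0.647), 0.44 ± 0.60 for Siglec-Fint/CD101- against resident (adjusted p = 0.733) and 0.13 ± 0.70 between the subsets (adjusted p = 1).

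Hbb-bt (ENSMUSG00000073940), the other adult beta gene, was the least counted of the haemoglobin genes in every library. It had 164 and 337 CPM in SiglecFhi/CD101+, 509 and 81.8 CPM in Siglec-Fint/CD101- libraries, and 400, 87.4, 27.4 and 92.8 CPM in resident libraries. Siglec-Fint/CD101- replicate 1 was the highest of all and resident replicate 5 the lowest. The log2 fold change was 0.73 ± 0.84 for SiglecFhi/CD101+ against resident (edgeR adjusted p = 0.689), 0.96 ± 0.84 for Siglec-Fint/CD101- against resident (adjusted p = 0.557) and -0.23 ± 1.00 between the subsets (adjusted p = 0.993).

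Summing the copies of each pair gave like values. The alpha pair differed by 0.23 ± 0.74 on the log2 scale (SE) for SiglecFhi/CD101+ against resident, 0.47 ± 0.74 for Siglec-Fint/CD101- against resident and -0.24 ± 0.87 between the subsets, and the beta pair by 0.60 ± 0.60, 0.53 ± 0.60 and 0.06 ± 0.70 in the same comparisons. The lowest adjusted p of these 6 values was 0.632 with edgeR. Resident replicate 3 weighed on the contrasts of the single genes against resident. Without it, the log2 fold change against resident reached 1.56 for Hba-a1, 1.65 for Hba-a2, 1.60 for Hbb-bs and 1.94 for Hbb-bt in SiglecFhi/CD101+. In Siglec-Fint/CD101- it reached 1.65, 1.80, 1.37 and 2.07 in the same order, and none of these was called.

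**Figure D2:**
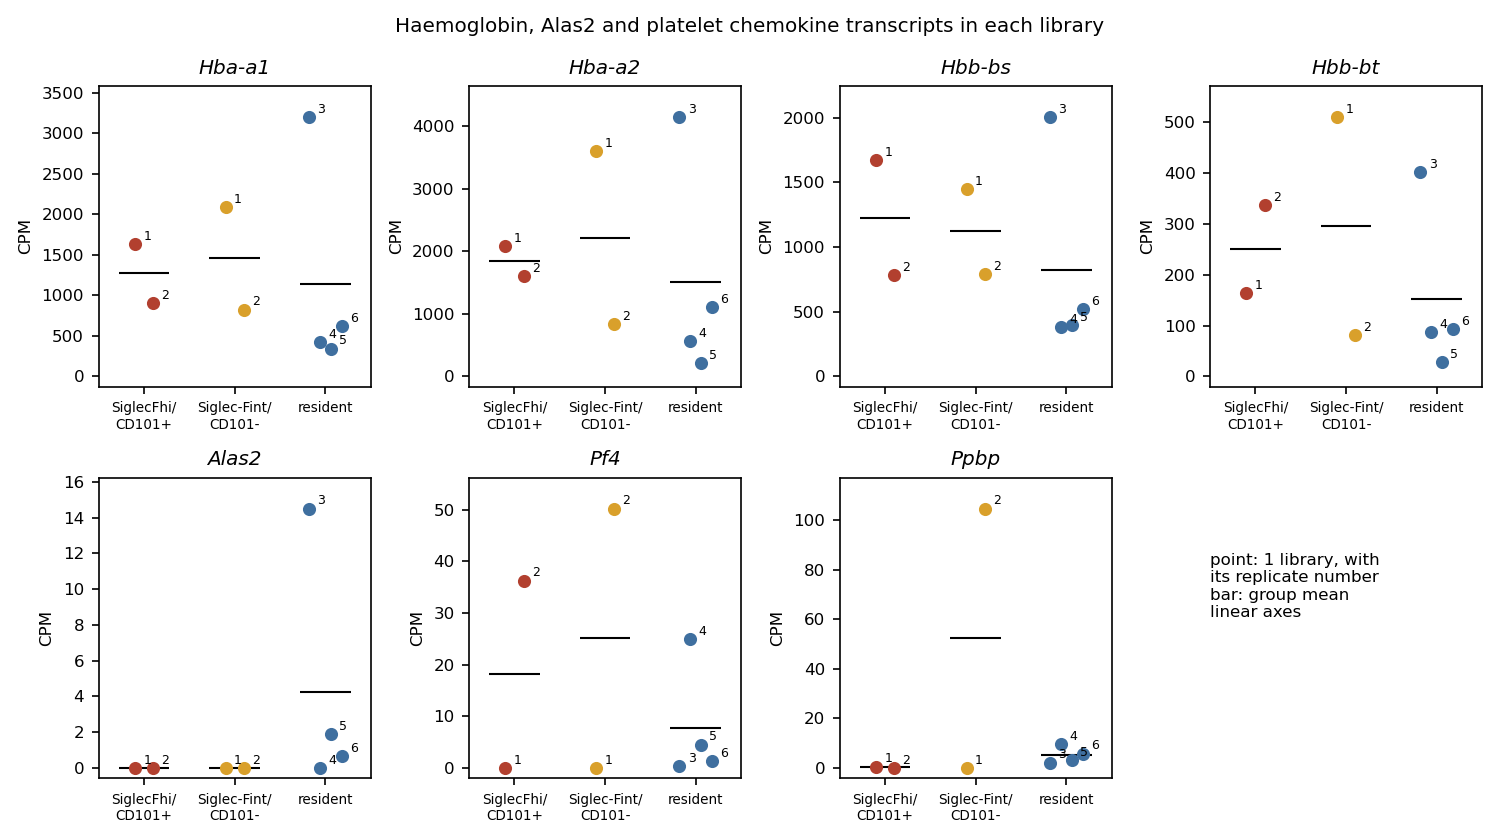
Level of each of the 7 genes in CPM (linear axes, scaled per gene), with 1 point a library, its replicate number beside it and the group mean as a bar. Resident replicate 3 tops the alpha genes and Hbb-bs, Alas2 has counts in resident libraries alone, and Pf4 and Ppbp are at 0 in Siglec-Fint/CD101- replicate 1 and high in Siglec-Fint/CD101- replicate 2.

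The balance of alpha to beta counts did not separate the groups. There were 2.03 and 2.25 alpha counts per beta count in SiglecFhi/CD101+, 2.91 and 1.89 in Siglec-Fint/CD101- libraries, and 3.06, 2.11, 1.32 and 2.80 in resident libraries. Group means were 2.14 ± 0.156 in SiglecFhi/CD101+ (SD, n = 2), 2.40 ± 0.720 in Siglec-Fint/CD101- (SD, n = 2) and 2.32 ± 0.779 in resident libraries (SD, n = 4). Alpha counts exceeded beta counts in all 8 libraries, and the resident libraries alone spanned the range of both subsets.

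Within the pairs, the shares of reads counted for each copy differed between libraries by more than binomial intervals on those reads. For the alpha pair, whether the copies themselves shifted cannot be told, since the handling of reads that match both copies is not given. Hbb-bs and Hbb-bt shared 0% of the windows near the 3' end, and whether these copies shifted was not tested. Hba-a2 made up 55.9% and 63.9% of alpha counts in SiglecFhi/CD101+, 63.3% and 50.2% in Siglec-Fint/CD101- libraries, and 56.4%, 57.5%, 38.2% and 64.0% in resident libraries. In resident replicate 5 the exact 95% binomial (Clopper-Pearson) interval was 37.2% to 39.3%, below the interval of every other library. Hbb-bt made up 8.96% and 30.1% of beta counts in SiglecFhi/CD101+, 26.0% and 9.34% in Siglec-Fint/CD101- libraries, and 16.7%, 18.6%, 6.49% and 15.1% in resident libraries. The 2 SiglecFhi/CD101+ libraries, with intervals of 8.03% to 9.96% and 28.1% to 32.3%, stood farther apart than any 2 resident libraries. These intervals cover counting error only, and reads that are copies of 1 molecule would make them too narrow.

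**Figure D3:**
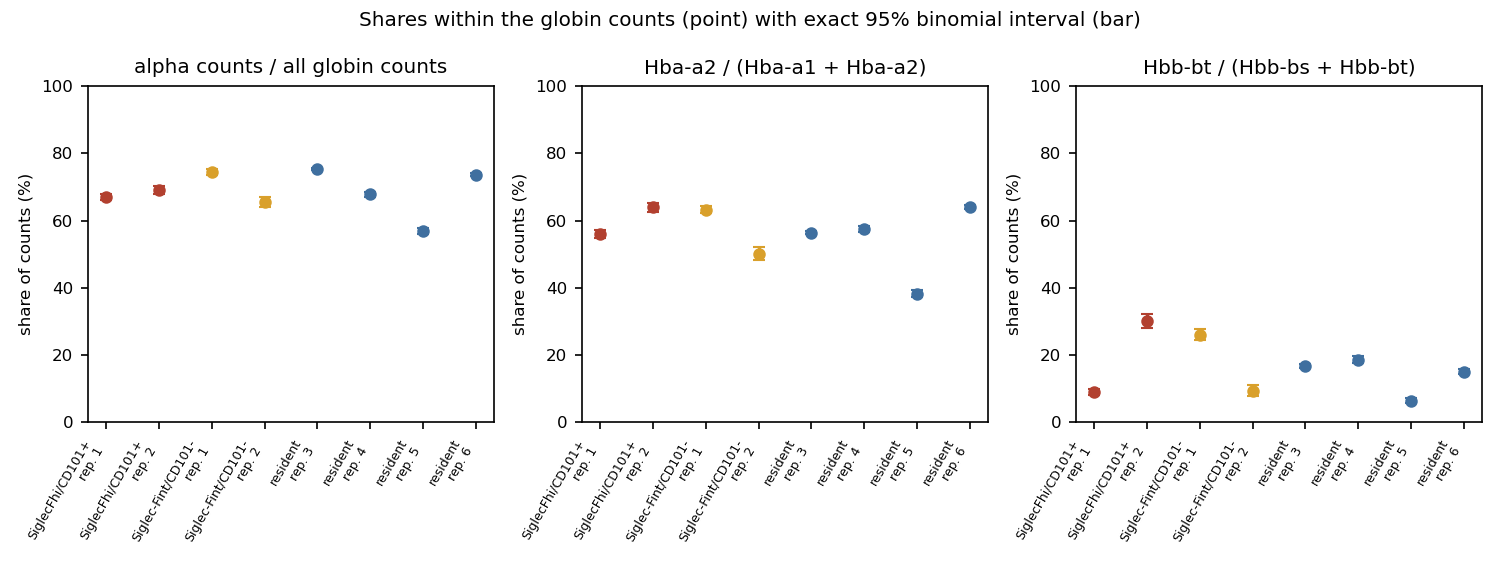
Shares within the haemoglobin counts of each library in %, with the exact 95% binomial interval as a bar: alpha counts among all 4 genes, Hba-a2 among alpha counts and Hbb-bt among beta counts. Alpha shares lie between 56.8% and 75.3%, and Hbb-bt shares run from 6.49% in resident replicate 5 to 30.1% in SiglecFhi/CD101+ replicate 2.

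Alas2 (ENSMUSG00000025270) had counts in resident libraries alone. It had 0 and 0 counts in SiglecFhi/CD101+, 0 and 0 in Siglec-Fint/CD101- libraries, and 87, 0, 27 and 10 in resident libraries, which is 14.5, 0, 1.88 and 0.662 CPM in resident libraries. The gene passed the filter through its resident counts, so its fitted values are not set out here, and no comparison was called. Resident replicate 3, the library with the most haemoglobin counts, held 87 of the 124 Alas2 counts. The floor of 3 counts pooled over a subset is 0.844 CPM for SiglecFhi/CD101+ and 1.00 CPM for Siglec-Fint/CD101-, beside a pooled Alas2 level of 2.57 CPM over the 4 resident libraries and of 0.876 CPM (37 counts) without resident replicate 3. Without that library the resident level is thus close to both floors, and a difference was not detectable at this depth. At the depth of the subset libraries, where a floor is 1.58 to 2.18 CPM, the level of resident replicate 6 lies below the floor and that of resident replicate 5 within its range.

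Pf4 (ENSMUSG00000029373), a chemokine that binds heparin, was counted in 6 of 8 libraries. It had 0 and 60 counts (0 and 36.3 CPM) in SiglecFhi/CD101+, 0 and 81 counts (0 and 50.2 CPM) in Siglec-Fint/CD101- libraries, and 2, 318, 65 and 20 counts (0.333, 24.9, 4.52 and 1.32 CPM) in resident libraries. In each subset 1 library was at 0 and the other above all resident libraries, so the groups overlapped fully. Pooled over libraries, the ratio to resident was 2.01 in SiglecFhi/CD101+ (exact 95% counting interval 1.51 to 2.64) and 3.22 in Siglec-Fint/CD101- (2.51 to 4.10). The spread between libraries was larger than these intervals: the fitted log2 fold change was 1.22 ± 1.90 (SE) for SiglecFhi/CD101+ against resident (edgeR adjusted p = 0.787), 1.69 ± 1.89 for Siglec-Fint/CD101- against resident (adjusted p = 0.662) and -0.46 ± 2.28 between the subsets (adjusted p = 1).

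Ppbp (ENSMUSG00000029372), the other platelet chemokine gene, was counted in every resident library but largely in 1 subset library. It had 1 and 0 counts (0.527 and 0 CPM) in SiglecFhi/CD101+, 0 and 169 counts (0 and 105 CPM) in Siglec-Fint/CD101- libraries, and 13, 125, 44 and 88 counts (2.17, 9.79, 3.06 and 5.83 CPM) in resident libraries. Both SiglecFhi/CD101+ libraries lay below all resident libraries, while 1 Siglec-Fint/CD101- library lay below and the other above them. The floors of these low libraries were 1.58 and 1.81 CPM in SiglecFhi/CD101+ and 2.18 CPM in Siglec-Fint/CD101- replicate 1, close to the 2.17 CPM of resident replicate 3. The pooled ratio of resident to SiglecFhi/CD101+ was 19.9 (exact 95% counting interval 3.54 to 789), and that of Siglec-Fint/CD101- to resident was 10.1 (8.28 to 12.3). The first ratio rests on 1 SiglecFhi/CD101+ count, a pooled level of 0.281 CPM that lies below the pooled floor of 0.844 CPM.

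Ppbp was the member with the lowest p, and its differences from Siglec-Fint/CD101- cells rested on 1 library of that group, replicate 2. Ppbp passed the filter only with its resident counts, so its fitted value for SiglecFhi/CD101+ against resident is not set out here. Its log2 fold change was 3.32 ± 1.53 (SE) for Siglec-Fint/CD101- against resident (edgeR unadjusted p = 0.0470, adjusted p = 0.315) and -7.48 ± 2.59 for SiglecFhi/CD101+ against Siglec-Fint/CD101- (unadjusted p = 0.0113, adjusted p = 0.239). DESeq2 called the last of these, at an adjusted p of 0.0208 and a log2 fold change of -7.49. Without Siglec-Fint/CD101- replicate 2 the sign turned, to -8.32 for Siglec-Fint/CD101- against resident and 4.04 for SiglecFhi/CD101+ against Siglec-Fint/CD101-. The neighbouring Pf4 was also high in that library, but in SiglecFhi/CD101+ replicate 2 Pf4 had 60 counts and Ppbp none.

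Of the 7 members, edgeR called 0 in each comparison. Over all 11828 genes tested it called 0.0254% for SiglecFhi/CD101+ against resident (3 genes), 0.0592% for Siglec-Fint/CD101- against resident (7 genes) and 0.00845% for SiglecFhi/CD101+ against Siglec-Fint/CD101- (1 gene), so a count of 0 members is near the background. Members with an unadjusted p under 0.05 numbered 0, 1 and 1 in these comparisons, against 16.8%, 15.7% and 17.9% of all genes. Against resident most genes at that p were negative, 1552 of 1984 for SiglecFhi/CD101+ and 1637 of 1862 for Siglec-Fint/CD101-, and between the subsets 941 of 2121 were. DESeq2 called 0, 0 and 1 of the members, against backgrounds of 8.84%, 6.62% and 13.9% of the genes to which it gave an adjusted p, and it gave none to Hba-a1 and Pf4 and gave one to Alas2 for SiglecFhi/CD101+ against resident alone. The median log2 fold change of all genes was -0.72 for SiglecFhi/CD101+ against resident, -0.997 for Siglec-Fint/CD101- against resident and 0 between the subsets. The haemoglobin genes' small positive values against resident, none called, stood above that of the median gene. That median also takes in genes with few counts, unlike the haemoglobin genes. A p above the threshold does not show that levels were alike, and the comparisons against resident share the resident libraries.

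**Figure D4:**
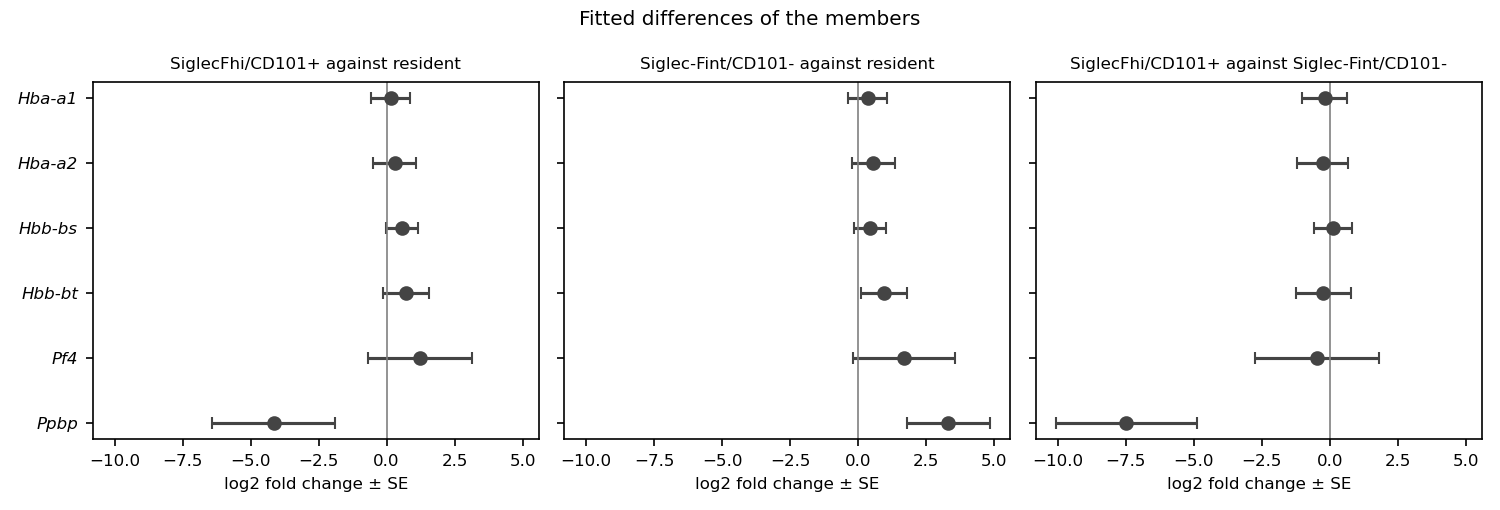
Fitted log2 fold change (point) with its standard error (bar) of 6 members in the 3 comparisons of the edgeR fit, the first-named group over the second. Haemoglobin genes lie between -0.26 and 0.96, Ppbp reaches -7.48 between the subsets, and Alas2 is left out because both subsets had no count of it. The Ppbp point for SiglecFhi/CD101+ against resident is drawn but not read, because the gene passed the filter only with its resident counts.

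Genes that define red cells were scarce. The 6 embryonic and theta globin genes listed (Hba-x, Hbb-bh1, Hbb-bh2, Hbb-y, Hbq1a and Hbq1b) had no count in any library. Of the 7 erythrocyte markers reported here, Slc4a1 (band 3), Klf1 (the erythroid transcription factor), Hemgn and Epb42 had none either. The summed counts of these 7 markers were 0 and 0 in SiglecFhi/CD101+, 0 and 0 in Siglec-Fint/CD101- libraries, and 0, 70, 3 and 1 in resident libraries. Ank1, the membrane anchor ankyrin, gave 69 of the 70 counts of resident replicate 4, a library with 1461 CPM of haemoglobin, whereas resident replicate 3, with 58507 haemoglobin counts, had none of these 7. No erythrocyte marker reported here passed the filter, and their part in the haemoglobin values was not tested beyond these counts.

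Platelet markers were more often present. Gp6, Gp1ba and Gp1bb, receptors for collagen and von Willebrand factor, were at 0 in all libraries, and the other 7 of 10 markers had counts somewhere. The summed level of the markers was 2.11 and 69.5 CPM in SiglecFhi/CD101+, 0 and 4.34 CPM in Siglec-Fint/CD101- libraries, and 14.0, 23.6, 12.8 and 18.2 CPM in resident libraries. Itga2b, the alpha chain of the platelet fibrinogen receptor, had 4 and 55 counts in SiglecFhi/CD101+, 0 and 0 in Siglec-Fint/CD101- libraries, and 0, 166, 0 and 251 in resident libraries. Clec1b, the podoplanin receptor, had 0 and 32 counts in SiglecFhi/CD101+, 0 and 4 in Siglec-Fint/CD101- libraries, and 0, 40, 105 and 22 in resident libraries. SiglecFhi/CD101+ replicate 2 thus had the highest marker sum and 60 Pf4 counts but no Ppbp count, while Siglec-Fint/CD101- replicate 2 had 169 Ppbp counts beside 7 counts of all markers. Whether platelets contributed to either gene's counts was not tested beyond these values.

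**Figure D5:**
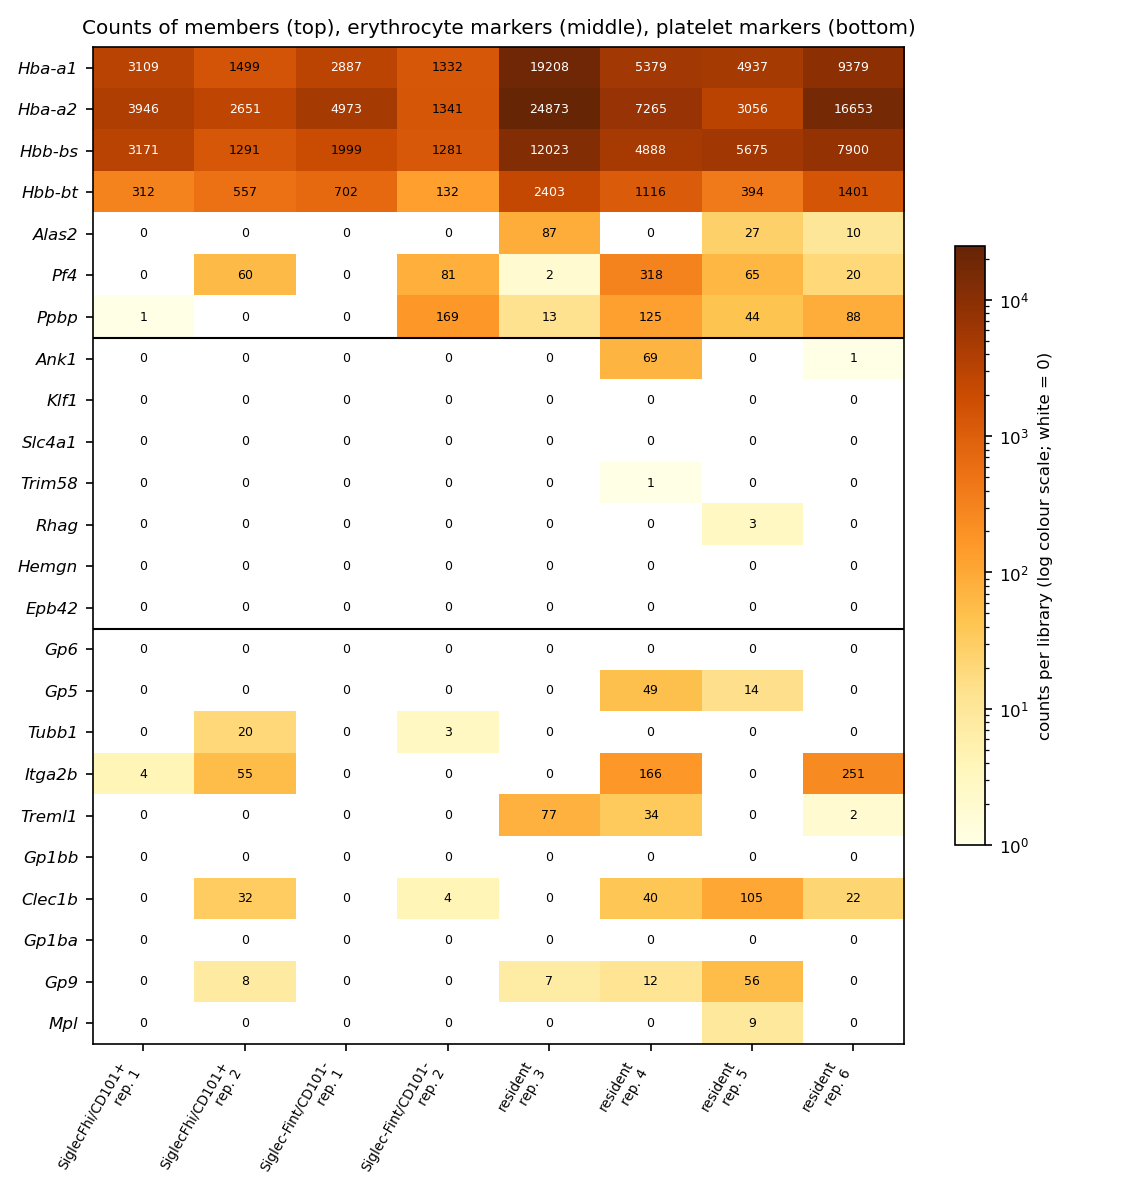
Counts in each library (number in each cell, colour on a log scale, white for 0) of the 7 members at the top, 7 erythrocyte markers in the middle and 10 platelet markers at the bottom. Haemoglobin genes have 132 to 24873 counts in every library, while erythrocyte markers are nearly all at 0 and platelet markers have counts scattered over libraries.

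Other steps of haem synthesis were measured by 11 genes, all tested. None was called by edgeR in any comparison, beside the same backgrounds. For SiglecFhi/CD101+ against resident, 2 had an unadjusted p under 0.05, both negative, a share near the 16.8% of all genes, and the median over the 11 log2 fold changes was -1.19 with genes at 0 set at their bound, against -0.72 over all genes. Alas1, the housekeeping form of the enzyme, had 4 and 1 counts in SiglecFhi/CD101+, 36 and 54 in Siglec-Fint/CD101- libraries, and 127, 84, 567 and 384 in resident libraries. Its log2 fold change was -4.06 ± 1.48 for SiglecFhi/CD101+ against resident (edgeR adjusted p = 0.231, DESeq2 0.0230). It was -4.42 ± 1.58 for SiglecFhi/CD101+ against Siglec-Fint/CD101- (edgeR adjusted p = 0.239, DESeq2 0.0109) and 0.36 ± 1.13 for Siglec-Fint/CD101- against resident (edgeR adjusted p = 0.896, DESeq2 0.705). Fech (ferrochelatase), which inserts iron into the ring, had 1 and 1 counts in SiglecFhi/CD101+, 0 and 0 in Siglec-Fint/CD101- libraries, and 121, 383, 191 and 176 in resident libraries. Like Alas2, Fech passed the filter through its resident counts, so its fitted values are not set out here.

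Negative log2 fold changes numbered 10 of these 11 genes for SiglecFhi/CD101+ against resident, 6 for Siglec-Fint/CD101- against resident and 6 between the subsets, against 63.9%, 66.9% and 43.8% of all genes. The median log2 fold change was -0.26 for Siglec-Fint/CD101- against resident, where 2 of 11 genes had an unadjusted p under 0.05, against 15.7% of all genes. These were Fech and Slc25a37, which passed the filter only with their resident counts, so their signs are not read. Between the subsets the median was -1.47 with bounds, over the 9 genes that had a value, with 1 positive and 2 negative values at that p, against 17.9% of all genes. Urod, an enzyme midway through the pathway, had 100 and 1 counts in SiglecFhi/CD101+, 0 and 1 in Siglec-Fint/CD101- libraries, and 58, 59, 117 and 106 in resident libraries, so its value between the subsets (edgeR adjusted p = 0.243, DESeq2 0.0276) rested on 1 library. Slc25a37 (mitoferrin), the mitochondrial iron importer, had 1 and 11 counts in SiglecFhi/CD101+, none in Siglec-Fint/CD101- and 2, 158, 72 and 184 in resident libraries.

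Genes of the red cell membrane and cytosol numbered 24 matched of the 25 reported here, with 18 counted and 9 tested. None was called by edgeR in any comparison, with 0, 1 and 1 at an unadjusted p under 0.05, no more than the shares of all genes at that p (16.8%, 15.7% and 17.9%), and the median log2 fold change was 0.19 for SiglecFhi/CD101+ against resident, -1.12 for Siglec-Fint/CD101- against resident and 0.17 with bounds between the subsets. Bnip3l, Aqp1, Epb41 and Prdx2, named after their values were seen and also used by other cells, had counts in all 8 libraries, 3372, 3350, 1794 and 996 in total. Car2, a carbonic anhydrase, had 35 and 15 counts in SiglecFhi/CD101+, 0 and 1 in Siglec-Fint/CD101- libraries, and 38, 12, 180 and 77 in resident libraries, and DESeq2 called it between the subsets (adjusted p = 0.0466; edgeR 0.260). Bpgm, which makes the oxygen-affinity regulator bisphosphoglycerate, had 9 and 1 counts in SiglecFhi/CD101+, none in Siglec-Fint/CD101- libraries, and 37, 89, 71 and 46 in resident libraries. Bpgm passed the filter only with its resident counts, so its fitted values are not set out here.

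Of 9 transcription factors of the erythroid and megakaryocyte lines, 5 were tested and none was called by edgeR in any comparison, with 1 at an unadjusted p under 0.05 in each, against 16.8%, 15.7% and 17.9% of all genes. That gene was Tal1 for Siglec-Fint/CD101- against resident and Lmo2 in the other comparisons. Both passed the filter only with their resident counts, so their signs against resident are not read. Klf1, Gfi1b and Zfpm1 had no count in any library. Gata1, the factor common to erythroid cells, megakaryocytes and eosinophils and named after its values were seen, had 0 and 7 counts in SiglecFhi/CD101+, 0 and 0 in Siglec-Fint/CD101- libraries, and 0, 109, 0 and 37 in resident libraries. Lmo2 had no count in SiglecFhi/CD101+, 37 and 3 in Siglec-Fint/CD101- libraries, and 32, 133, 105 and 168 in resident libraries. Lmo2 passed the filter only with its resident counts, so its fitted values are not set out here.

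The longer list of 28 platelet and megakaryocyte genes had 19 tested, and neither edgeR nor DESeq2 called any in any comparison, while 1, 2 and 3 of them had an unadjusted p under 0.05, below the shares of all genes at that p (16.8%, 15.7% and 17.9%). Its median log2 fold change was 0.46 for SiglecFhi/CD101+ against resident, -0.63 with bounds for Siglec-Fint/CD101- against resident and 0.65 with bounds between the subsets. Plek (pleckstrin), a kinase substrate also found in leukocytes, had 51 and 177 counts in SiglecFhi/CD101+, 27 and 40 in Siglec-Fint/CD101- libraries, and 824, 1865, 1062 and 3217 in resident libraries, a log2 fold change of -2.69 ± 0.80 for Siglec-Fint/CD101- against resident (edgeR adjusted p = 0.288). Itgb3, the partner chain of Itga2b, had 140 and 0 counts in SiglecFhi/CD101+, none in Siglec-Fint/CD101- libraries, and 2, 0, 44 and 127 in resident libraries. Itga2b and Itgb3 were thus high in different SiglecFhi/CD101+ libraries. Of the other CXC chemokine genes listed, 3 of 5 were tested and none was called by edgeR or DESeq2, with 1, 1 and 0 at an unadjusted p under 0.05, too few to set against those shares, the lowest edgeR adjusted p being 0.294, for Cxcl15, a chemokine of lung epithelium, in SiglecFhi/CD101+ against resident.

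Haem and iron handling had 12 genes tested of 14 matched, none called by edgeR in any comparison, with 1, 2 and 1 at an unadjusted p under 0.05, against 16.8%, 15.7% and 17.9% of all genes. Hmox1 (haem oxygenase), which breaks haem down, had 3 and 1 counts in SiglecFhi/CD101+, 0 and 0 in Siglec-Fint/CD101- libraries, and 49, 196, 198 and 228 in resident libraries. Hmox1 passed the filter through its resident counts, so its fitted values are not set out here. Cd163, the scavenger receptor for haemoglobin bound to haptoglobin, had none in SiglecFhi/CD101+, 0 and 38 in Siglec-Fint/CD101- libraries, and 41, 174, 63 and 74 in resident libraries. Cd163 passed the filter only with its resident counts, so its fitted values are not set out either. The low subset depth bears on such counts, since 1 count in a subset library stands for more CPM than in a resident one.

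Markers of other lung cells stood beside the haemoglobin transcripts. Macrophage markers, of which C1qb, C1qc and Csf1r had the most counts, summed to 171 and 224 CPM in SiglecFhi/CD101+, 708 and 284 CPM in Siglec-Fint/CD101- libraries, and 416, 818, 284 and 676 CPM in resident libraries. Markers of alveolar type II epithelium, led by Sftpc, Sftpa1 and Sftpb, summed to 3630 and 2188 CPM in SiglecFhi/CD101+, 3421 and 2998 CPM in Siglec-Fint/CD101- libraries, and 1153, 329, 4085 and 538 CPM in resident libraries. Endothelial markers, led by Calcrl, Pecam1 and Ramp2, summed to 632 and 625 CPM in SiglecFhi/CD101+, 719 and 869 CPM in Siglec-Fint/CD101- libraries, and 616, 212, 866 and 395 CPM in resident libraries. The summed haemoglobin level was 5548 and 3625 CPM in SiglecFhi/CD101+ and 7660 and 2532.5 CPM in Siglec-Fint/CD101- libraries. It was 9749, 1461, 978 and 2340 CPM in resident libraries. Resident replicate 5 was highest in epithelial markers and lowest in haemoglobin, while resident replicates 4 and 6 were low in both. How these levels relate was not tested. No macrophage, epithelial or endothelial marker was called by edgeR in any comparison. Against resident libraries, DESeq2 called 3 of 10 macrophage markers and 1 of 9 endothelial markers lower in SiglecFhi/CD101+, beside 8.84% of all genes in either direction. It called 2 of 10 macrophage markers lower in SiglecFhi/CD101+ than in Siglec-Fint/CD101-, beside 13.9% of all genes. These markers are too few to set against those shares. How many of these cells there were was not measured, and the part of these cells in the haemoglobin counts was not tested.

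Genes whose levels followed those of the haemoglobin genes across the 8 libraries were sought among 10986 genes by Pearson's r of log2(CPM + 1), as a description. The 5 highest were Tcirg1 (0.84), Mrpl12 (0.84), Snhg14 (0.83), Sri (0.81) and Ubald2 (0.81). Tcirg1, a subunit of the vacuolar proton pump, had 24.7 and 23.6 CPM in SiglecFhi/CD101+, 50.8 and 32.2 CPM in Siglec-Fint/CD101- libraries, and 35.3, 20.1, 12.2 and 19.9 CPM in resident libraries. For Pf4 the 5 highest were Glt8d1 (0.98), Acyp1 (0.97), R74862 (0.97), Tmem131 (0.95) and Fancc (0.94). Glt8d1 had 0 and 18.1 CPM in SiglecFhi/CD101+, 0 and 21.1 CPM in Siglec-Fint/CD101- libraries, and 0, 9.09, 3.20 and 0 CPM in resident libraries. The points share their libraries' depth, and in sparse counts such as these of Glt8d1 an r rests on few libraries.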

How the data were processed

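For every library the authors deposited a table of raw counts by Ensembl gene. The values are whole numbers with unlike totals, so they are not normalized. Tools named in the submitters' processing notes are FastQC 0.11.5, Trim Galore, cutadapt 1.10, TopHat2 2.1.0, Bowtie2 2.2.6, DESeq2 1.28.0 and HTSeq 0.6.1, with no parameters. Build, annotation, strandedness and any collapse of molecular identifiers are each not given in the sources used here. Where amplified copies were counted as reads, counting intervals are too narrow.

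Groups came from sample titles. Symbols were matched by Ensembl identifier in GENCODE on GRCm38 for 54409 of 54446 rows, and 21197 genes had a count. The main test was edgeR 4.0.16 in R 4.3.3: robust quasi-likelihood with TMM factors, 1 mean for each group, no block, and 11828 genes kept by filterByExpr. Tests were two-sided, and a gene was called when its p, adjusted by Benjamini-Hochberg, was below 0.05. All 8 libraries entered this fit. The fit's common biological coefficient of variation was 1.12. Each CPM is counts over the library total times its TMM factor, and pooled ratios use the same scaling. DESeq2 1.42.0 was an alternative, with the others given in the closing section. Sequences came from GENCODE transcripts and RefSeq promoters of GRCm38.p6.

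The members, lists and tests were chosen with earlier results of these data known. Named genes are the 7 members, up to 4 genes of each list with the smallest p, list members at 0 that define a cell type, the 3 most counted markers of each cell type, and the 5 genes most like the summed haemoglobin genes and Pf4, leaving out predicted gene models. Others are marked as named after their values were seen. A pair of genes on the red cell lists is not reported here and enters no list's counts or sums.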

Additional observations from a re-analysis of the deposited data

Results flagged for a closer look

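In 4 of 11 values tested over the 4 resident libraries, 1 library stood far from the other 3, by Dixon's ratio. Its criterion flags about 1 in 20 groups by chance where values are normally distributed, which was not checked here. Hba-a1 was at 3201 CPM in resident replicate 3, with the next library at 621 CPM, and Hbb-bs at 2003 CPM in the same library, with the next at 523 CPM. Alas2 was at 14.5 CPM in resident replicate 3, with the next library at 1.88 CPM. Pf4 was at 24.92 CPM in resident replicate 4, with the next library at 4.52 CPM. The values of 3 of these 4 genes come from 1 library and are not independent of each other. Groups of 2 libraries could not be examined in this way.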

How the results depend on the processing

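Under every alternative edgeR called 0 members, and DESeq2 called 1 (Ppbp, SiglecFhi/CD101+ against Siglec-Fint/CD101-). Counts of all genes called depended on the settings, and the cause was not tested. For SiglecFhi/CD101+ against resident, 3 genes called became 7 without normalization factors, 370 without a filter on low counts, 905 with DESeq2 and 1 with the compared groups alone, and leaving out 1 library gave 1 to 133 (131 and 133 without Siglec-Fint/CD101- replicates 1 and 2). For Siglec-Fint/CD101- against resident, 7 became 3 without factors, 136 without a filter, 1 with a filter of 20 counts in 2 libraries, 649 with DESeq2 and 0 with the compared groups alone, and 0 to 9 without 1 library. For SiglecFhi/CD101+ against Siglec-Fint/CD101-, 1 became 85 without a filter, 1269 with DESeq2, 0 with the compared groups alone and 0 to 2 without 1 library. With the replicate block, 4 genes were called between the subsets and no member. Same-numbered libraries deviated together with r of 0.0069 over 11828 genes. That r does not show that the numbers pair the libraries and, with n = 2 in each subset, cannot exclude it. Outside mitochondrial genes, mean haemoglobin shares were 1.63% for SiglecFhi/CD101+, 1.58% for Siglec-Fint/CD101- and 1.02% for resident libraries.

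Signs of uncalled log2 fold changes turned as follows. Without factors, SiglecFhi/CD101+ against resident gave -0.43 for Hba-a1, -0.20 for Hba-a2 and -0.10 for Hbb-bs, Siglec-Fint/CD101- against resident gave -0.20 for Hba-a1 and -0.21 for Hbb-bs, and SiglecFhi/CD101+ against Siglec-Fint/CD101- gave 0.54 for Pf4. In that last comparison the replicate block gave 0.0342 for Hba-a1, 0.22 for Hba-a2 and 0.35 for Hbb-bt. Summing the beta pair, with no block, gave 0.0629 for the pair in place of the value of Hbb-bt alone, which was -0.23. Over the libraries left out in turn, the values spanned these ranges. SiglecFhi/CD101+ against resident ran from -0.41 to 1.56 for Hba-a1, -0.15 to 1.60 for Hbb-bs and -8.90 to 3.23 for Pf4. Siglec-Fint/CD101- against resident ran from -0.52 to 1.65 for Hba-a1, -0.91 to 1.80 for Hba-a2, -0.11 to 1.37 for Hbb-bs, -0.94 to 2.07 for Hbb-bt, -8.90 to 3.66 for Pf4 and -8.32 to 4.26 for Ppbp. SiglecFhi/CD101+ against Siglec-Fint/CD101- ran from -0.80 to 0.58 for Hba-a1, -1.05 to 1.11 for Hba-a2, -0.57 to 0.58 for Hbb-bs, -1.10 to 1.58 for Hbb-bt, -10.53 to 10.03 for Pf4 and -11.59 to 4.04 for Ppbp. Haemoglobin values against resident were lowest without replicate 1 of the subset and highest without resident replicate 3 (Hbb-bt in SiglecFhi/CD101+ was lowest without replicate 2), and Hba-a1 in SiglecFhi/CD101+ was also negative without resident replicate 5. The sign turned without replicate 2 of the subset for Pf4 in both subsets against resident and for Ppbp in Siglec-Fint/CD101- against resident. Between the subsets, signs of single genes turned without each of the 4 subset libraries. Values beyond 8 in size compare with a group at 0 or 1 count and depend on the prior count. Depth limits Alas2, which had no count in either subset.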
